A study of Mus musculus with 2 samples.

Results

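The T cell receptor variable segments are the germline pieces that supply the antigen-facing part of each receptor chain. They were taken as every gene of the deposited feature lists whose symbol starts with Trav, Trbv, Trdv or Trgv, which gave 170 of 32285 genes: 128 Trav, 35 Trbv, 6 Trdv and 1 Trgv. Single-cell libraries of mouse CD8+ T cells from lymph node were made with a 10x 3' kit, in which each captured RNA molecule carries a unique molecular identifier (UMI). Matrix electrical stimulation was the variable of the study, and 1 library was labelled NC and 1 HC. The labels do not say which of these was stimulated, nor do the sources used here give a strain, a genotype, an age, a sex, a number of animals or a culture time. With 1 library per group no test between NC and HC was possible, and each 95% interval below covers counting error only.

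Each alpha-beta T cell assembles its receptor genes once during development in the thymus. In the beta chain locus a single Trbv segment is joined to a diversity and a joining piece, and allelic exclusion usually leaves a cell with 1 working beta chain. In the alpha chain locus a Trav segment is joined directly to a joining piece, often on both alleles, and the delta locus with its Trdv segments lies inside the alpha locus. In an unselected T cell population many segments are used side by side, so the spread of Trav and Trbv usage is a coarse reading of how many clones are present. Cells from mice with a transgenic receptor carry 1 introduced pair, which need not be the only alpha chain of a cell. OT-I joins a Trav14 segment with Trbv12-1, P14 a Trav14 segment with Trbv13-3, and pmel-1 uses Trbv14.

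Kept cells had at least 500 genes, at least 1000 UMIs and at most 10% mitochondrially encoded UMIs: 13641 cells of NC (median depth 6898 UMIs) and 13617 of HC (7425 UMIs). The kept cells summed to 115789139 and 114430972 UMIs. By a floor of 3 UMIs per library, a count of 0 allowed up to 0.0259 counts per 1e+06 UMIs (CPM) in NC and 0.0262 in HC. The cells carried the markers of their label. Of the CD8 co-receptor chains, Cd8b1 was found in 95.1% of NC and 95.3% of HC cells and Cd8a in 84.9% and 78.6%. Cd3d, a signalling chain of the receptor complex, was found in 99.8% and 99.9%, and Cd4 had 1 and 2 UMIs. Among B cell and macrophage or dendritic markers, the highest in NC were Igkc (2406 NC and 228 HC UMIs), Cd74 (1810 and 534), Cd79b (1442 and 1596) and Lyz2 (416 and 0). Both libraries held 49 kept cells with the same barcode. Doublets were not removed.

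Trbv12-1 held nearly every Trbv UMI of both libraries, and its closest relative Trbv12-2 held almost none, so the coding part of the variable exon of each is shown. Capitals mark the bases at which the 2 differ. The Trbv12-1 exon lies at chr6:41113775-41114067 and that of Trbv12-2 at chr6:41119072-41119364, both on the plus strand of GRCm38 (mm10) and read from GENCODE transcripts 5′ to 3′.
Trbv12-1: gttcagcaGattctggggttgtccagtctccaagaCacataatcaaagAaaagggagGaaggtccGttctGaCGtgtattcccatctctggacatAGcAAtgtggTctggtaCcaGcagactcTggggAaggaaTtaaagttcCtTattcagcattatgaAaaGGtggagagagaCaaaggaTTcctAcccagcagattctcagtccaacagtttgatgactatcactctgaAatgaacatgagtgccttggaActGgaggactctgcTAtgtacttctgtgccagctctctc
Trbv12-2: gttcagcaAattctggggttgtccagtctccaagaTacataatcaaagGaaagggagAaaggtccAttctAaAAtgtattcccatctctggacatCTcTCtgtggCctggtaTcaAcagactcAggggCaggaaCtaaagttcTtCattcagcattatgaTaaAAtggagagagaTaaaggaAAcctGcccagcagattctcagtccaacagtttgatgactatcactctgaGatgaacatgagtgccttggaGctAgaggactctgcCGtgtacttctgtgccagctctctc
The exons differ at 32 of 293 bases (89.1% identity). Across the whole Trbv12-1 transcript, 100% of its windows of 50 bases occurred in no other variable segment.

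Trbv usage rested on that 1 segment. Trbv12-1 had 1384 of 1415 Trbv UMIs in NC (97.8%, 96.9 to 98.5) and 1237 of 1282 in HC (96.5%, 95.3 to 97.4). Counted by cells, it was present in 97.9% (97.0 to 98.6) of the 1329 cells with any Trbv UMI in NC and in 96.9% (95.8 to 97.8) of the 1204 in HC. Both libraries were thus alike in their leading segment, which was the only variable segment of the 170 to reach 5 CPM in either. The next highest of all was Trdv2-2, at 116 and 78 UMIs.

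The remaining Trbv segments were scattered at a few UMIs each. The next in NC was Trbv11, an annotated pseudogene, with 10 UMIs against 8 in HC, and the next in HC was Trbv31, which lies beyond the constant genes in the opposite orientation, with 13 against 3 in NC. Trbv21 had 4 and 6 UMIs, Trbv13-2 had 5 and 3, Trbv1 had 3 and 4, and Trbv12-2 had 1 and 3. These are whole-library sums in UMIs of a 3' kit, and the annotated transcripts of the 22 Trbv segments not marked as pseudogenes span 335 to 566 bases. Of those 22 segments, 9 had no UMI in either library, among them Trbv14 and Trbv13-3, so the beta segments of pmel-1 and P14 were not detected.

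**Figure D1:**
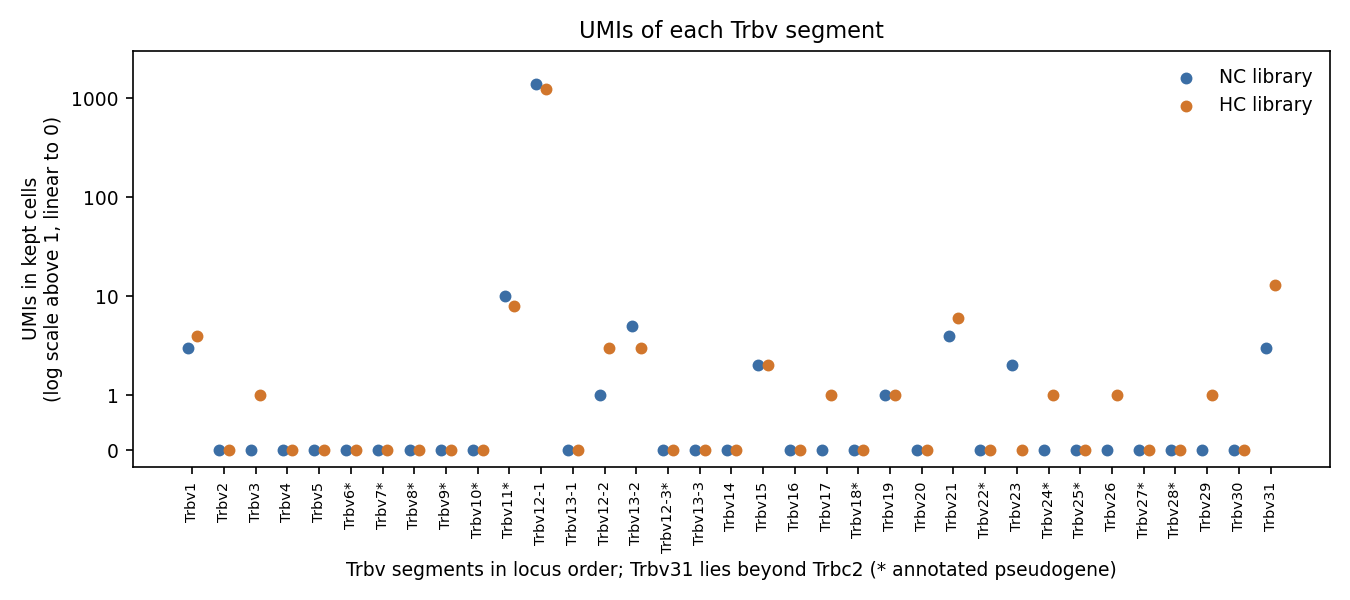
UMIs of each of the 35 Trbv segments in locus order, NC in blue and HC in orange, on an axis that is logarithmic above 1 and linear down to 0. Trbv12-1 stands at 1384 and 1237 UMIs, while no other segment exceeds 13.

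Evenness of usage was accordingly near its floor for Trbv. The effective number of segments, the count of equally used segments that would give the same Shannon entropy, was 1.17 in NC (1.12 to 1.22) and 1.27 in HC (1.20 to 1.35), and the inverse Simpson number was 1.05 and 1.08. The sequence features measured here did not set Trbv12-1 apart from the other Trbv segments not marked as pseudogenes. Its transcript has 389 bases against a median of 372, its longest run of A is 4 bases against a median of 4 and a range of 3 to 6, and its A content is 26.0% within a range of 20.9 to 33.6. It lies 433 kb from Trbc2, where the median segment lies at 408 kb. Sequence outside the annotated transcripts was not examined. Whether cells that use another segment would yield as many UMIs of it was not tested.

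Few cells showed more than 1 Trbv segment. Among cells with a Trbv UMI, 3 of 1329 in NC (0.226%, 0.0466 to 0.658) and 8 of 1204 in HC (0.664%, 0.287 to 1.31) had UMIs on more than 1. Among the cells with at least 2 Trbv UMIs these were 3 of 81 (3.70%) and 8 of 73 (10.96%). Each of the 11 combined Trbv12-1 with 1 other segment: Trbv11 in 2 NC cells, Trbv15 in 1 NC cell, Trbv31 in 5 HC cells, and Trbv1, Trbv3 and Trbv19 in 1 HC cell each. The cells with another Trbv segment held Trbv12-1 in 3 of 31 cases in NC (9.68%, 2.04 to 25.8) and 8 of 45 in HC (17.8%, 8.002 to 32.1), beside 9.54% and 8.57% of all kept cells. The median depth of those cells was 9307 and 8497 UMIs, above that of all kept cells.

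Repeated UMIs of a segment in 1 cell were found for Trbv12-1 and for no other Trbv segment. At least 2 UMIs of Trbv12-1 were found in 78 NC and 65 HC cells, up to 4 and 5 in a cell. Of the cells with another Trbv segment, 0 had more than 1 UMI of it. Among cells with exactly 2 Trbv UMIs, both fell on 1 segment in 74 of 77 for NC (96.1%, 89.0 to 99.2) and in 62 of 70 for HC (88.6%, 78.7 to 94.9). UMI pairs drawn from different cells fell on 1 segment in 95.7% and 93.1%, so with usage this uneven the within-cell share carries little information for Trbv.

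Trav UMIs were spread over many segments, unlike those of Trbv. In NC 42 and in HC 44 of 128 Trav segments had a UMI, with 484 UMIs in 414 cells (3.03%, 2.75 to 3.34) and 397 UMIs in 328 cells (2.41%, 2.16 to 2.68). The effective number of segments was 22.2 in NC (20.2 to 24.4) and 22.8 in HC (20.5 to 25.4). Annotated pseudogenes, 20 of the 128 segments, are counted in it and held 73 of the 484 NC and 36 of the 397 HC UMIs. The most frequent were Trav16 with 51 and 46 UMIs, Trav6-7-dv9 with 48 and 40, Trav21-dv12 with 54 and 32, Trav22, an annotated pseudogene, with 52 and 24, Trav15-1-dv6-1 with 28 and 31, and Trav19 with 21 and 32. The segment found in most cells held 12.3% of the Trav cells in NC (Trav22) and 11.9% in HC (Trav16).

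Within a cell, Trav UMIs mostly shared a segment. Of the cells with exactly 2 Trav UMIs, both fell on the same segment in 30 of 36 in NC (83.3%, 67.2 to 93.6) and 28 of 33 in HC (84.8%, 68.1 to 94.9). UMI pairs from different cells fell on the same segment in 5.90% and 5.54%. The share within cells was therefore far above the share between cells in both libraries. At least 2 UMIs of 1 Trav segment occurred in 44 NC cells over 20 segments and in 43 HC cells over 19 segments. Of the cells with at least 3 Trav UMIs, all UMIs were on 1 segment in 13 of 14 for NC and 10 of 15 for HC. Trdv pairs fell on 1 segment in 15 of 16 cells for NC and 4 of 4 for HC, beside 32.4% and 34.3% between cells. Whether some of these repeats are copies of 1 molecule was not tested.

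**Figure D2:**
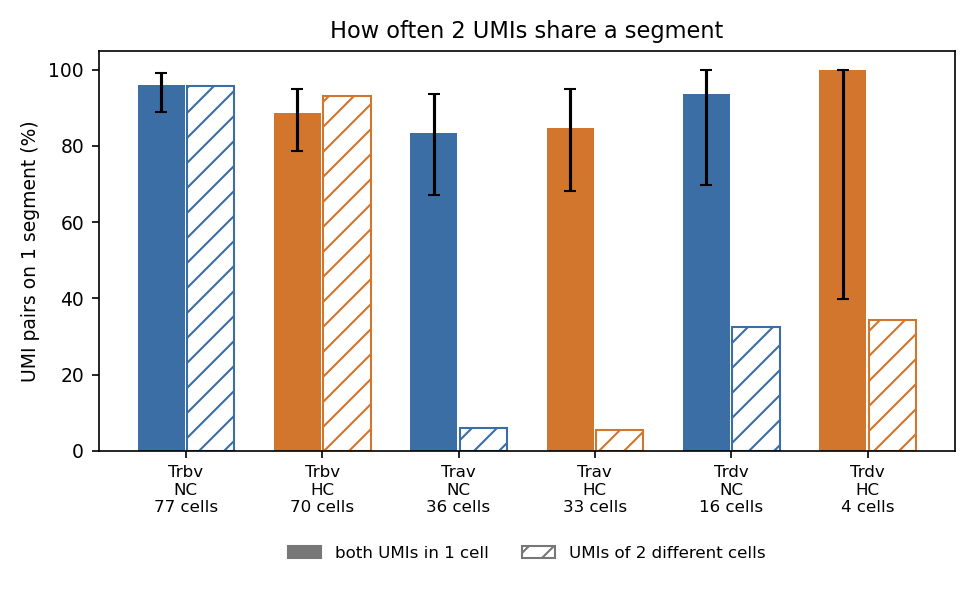
Share of UMI pairs that fall on 1 segment, for both UMIs in 1 cell (filled, cells with exactly 2 UMIs, with exact 95% binomial intervals) and for UMIs of different cells (hatched), by segment set and library. For Trav the filled bars stand at 83.3% and 84.8% and the hatched bars at 5.90% and 5.54%, while for Trbv the lowest bar is at 88.6%.

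Trav segments differed in how their UMIs were divided among cells, as seen after their values were known. Trav13-2 had 12 UMIs in 6 NC cells, Trav17 had 20 UMIs in 11 HC cells, of which 6 held at least 2, and Trav4-4-dv10 had 13 UMIs in 7 HC cells with 6 of them in 1 cell. The UMIs of other segments were almost all in separate cells: Trav22 had 52 UMIs in 51 NC cells and 24 in 24 HC cells, Trav15-2-dv6-2 had 17 in 17 and 16 in 16, and Trav15-1-dv6-1 had 28 in 27 and 31 in 31. More than 1 Trav segment was seen in 7 of 414 Trav cells in NC (1.69%, 0.682 to 3.45) and 10 of 328 in HC (3.05%, 1.47 to 5.54). Only cells with at least 2 Trav UMIs can show this, and among those it was 7 of 50 in NC (14%, 5.82 to 26.7) and 10 of 48 in HC (20.8%, 10.5 to 35.0).

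The Trav14 family, which supplies the alpha chain of OT-I and P14, was not the leading Trav family. Its 9 members summed to 33 of 484 Trav UMIs in NC (6.82%, 4.74 to 9.44) and 38 of 397 in HC (9.57%, 6.86 to 12.9). Trav14-3 had 14 and 15 UMIs, Trav14-2 had 11 and 9, and Trav14-1 had 5 and 10. Members of this family differ in how much of their sequence is their own. For Trav14-1, 95.1% of the windows of 50 bases occurred in no other variable segment, against 0% for Trav14n-1. The last 300 bases of the variable exon of Trav14-1 (chr14:53554259-53554558) and Trav14n-1 (chr14:53166879-53167178) are therefore shown. They are from GRCm38, plus strand, 5′ to 3′, with capitals at the bases that differ.
Trav14-1: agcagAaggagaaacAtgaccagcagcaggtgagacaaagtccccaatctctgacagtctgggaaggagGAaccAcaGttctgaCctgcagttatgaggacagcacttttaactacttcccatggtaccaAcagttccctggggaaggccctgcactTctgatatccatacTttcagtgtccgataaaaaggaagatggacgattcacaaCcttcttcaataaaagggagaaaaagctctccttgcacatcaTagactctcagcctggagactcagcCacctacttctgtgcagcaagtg
Trav14n-1: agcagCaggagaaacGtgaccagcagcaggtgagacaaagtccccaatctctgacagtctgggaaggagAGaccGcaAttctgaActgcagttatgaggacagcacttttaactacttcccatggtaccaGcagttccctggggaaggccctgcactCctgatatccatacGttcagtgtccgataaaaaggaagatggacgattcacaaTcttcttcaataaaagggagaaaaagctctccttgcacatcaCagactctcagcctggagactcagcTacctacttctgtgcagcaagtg
Trav14n-1 and Trav14d-1 have the same transcript sequence (100% identity), and neither has a window of 50 bases of its own, so reads from them could not be told apart.

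Trav counts moved with sequence uniqueness, and counts of Trav and Trdv moved with position. The 39 Trav segments with no window of 50 bases of their own summed to 2 UMIs in NC and 1 in HC, whereas the 10 segments unique in every window had 162 and 114 UMIs, or 16.2 and 11.4 per segment. The 39 segments named as d copies, from a duplicated part of the locus, summed to 12 NC and 15 HC UMIs, and the 34 named as n copies to 4 and 9. Of all Trav and Trdv UMIs, 31.7% in NC and 23.8% in HC lay within 300 kb of the constant gene Trac and a further 56.1% and 60.4% at 300 to 600 kb. The 29 segments at 600 to 900 kb held 9.55% and 11.4%. In the nearest stretch the Trav UMIs were those of Trav22 (52 NC and 24 HC) and Trav23 (4 and 0). Its other segments were Trdv, led by Trdv2-2 (116 and 78) and Trdv5 (37 and 20). Trdv1 lay at 300 to 600 kb, so these shares are not those of Trav alone. The median share of unique windows was 100% in the nearest stretch, 63.1% at 300 to 600 kb, 54.6% at 600 to 900 kb and 0% at 900 to 1200 kb. The stretches at 300 to 600 and 600 to 900 kb, with 24 and 29 segments, had 411 and 70 UMIs in NC and 343 and 65 in HC. Their medians of uniqueness were similar, but the stretches were not alike in it. The nearer one held segments unique in every window, and the farther one held none. Among these were Trdv1 (73 NC and 60 HC UMIs), Trav21-dv12 (54 and 32), Trav19 (21 and 32) and Trav17 (21 and 20). The far segments Trav1 and Trav5-1, unique in every window, had 0 UMIs in both libraries, and Trav2, also unique and 1652 kb away, had 6 and 5. The part of read assignment in the Trav spread was not tested beyond these values.

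**Figure D3:**
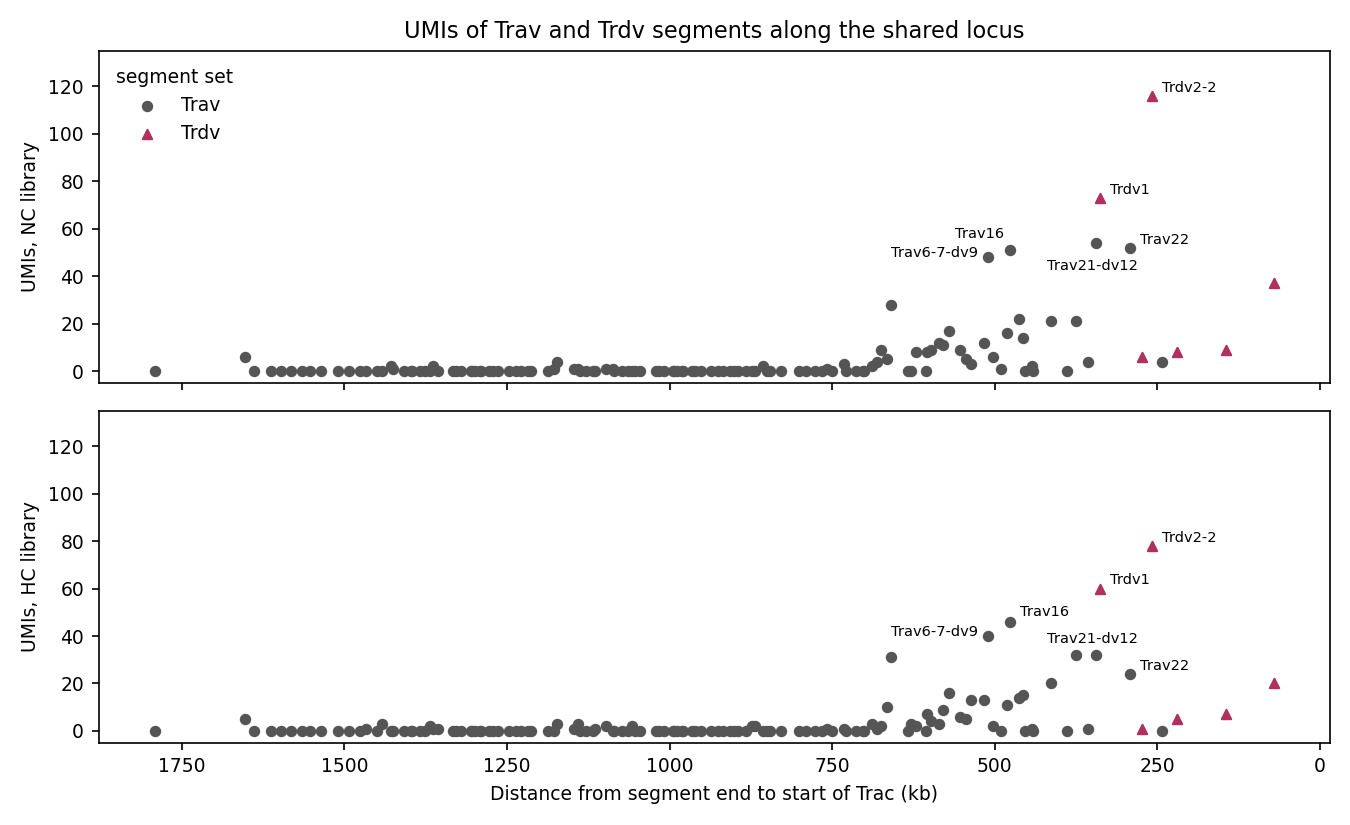
UMIs of each Trav (circles) and Trdv (triangles) segment against its distance to Trac, in NC (top) and HC (bottom). The segments with most UMIs, Trdv2-2 at 116 and 78 and Trdv1 at 73 and 60, lie near Trac, and segments beyond 900 kb hold few or no UMIs.

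Trdv segments, which encode delta chains, were found in few cells. They had 249 UMIs in NC (2.15 CPM, 1.89 to 2.43) and 171 in HC (1.49 CPM, 1.28 to 1.74), led by Trdv2-2, Trdv1 and Trdv5, the last with 37 and 20 UMIs. Trdc, the delta constant gene, was much higher, at 14481 UMIs in 48.2% of NC cells and 12151 in 42.8% of HC cells. It was found in 54.3% of the 223 NC cells with a Trdv UMI (47.5 to 60.9) and 48.1% of those without (47.2 to 48.9), and in HC in 47.9% (40.0 to 55.8) and 42.8% (41.9 to 43.6). Cells with a Trdv UMI also held Trbv12-1 in 11.7% of cases in NC (7.76 to 16.6) and 14.7% in HC (9.67 to 21.1), against 9.50% and 8.50% of the others. They were deeper, at 8443 and 8754 median UMIs. Trdv5 lies on the opposite strand and overlaps Trdc, and Trdv2-2 and Trav22 overlap the antisense gene Gm43647 (121 and 111 UMIs). The sources used here do not state whether counting used strand, and without it their reads cannot be told apart.

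Trgv2, the only gamma segment matched by the symbol rule, had 47 UMIs in 43 NC cells and 54 in 48 HC cells. It was often found with its constant genes: of the cells with Trgv2, 21 of 43 in NC (48.8%, 33.3 to 64.5) and 25 of 48 in HC (52.1%, 37.2 to 66.7) also had a UMI of Tcrg-C1, Tcrg-C2 or Tcrg-C4, the gamma constant genes, against 3.29% and 2.59% of cells without Trgv2.

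Pairs of an alpha and a beta segment could be read in few cells. Exactly 1 Trav and 1 Trbv segment was found in 49 NC cells, forming 23 different pairs with 22 Trav segments, and in 22 HC cells, forming 12 pairs with 11 Trav segments. Trbv12-1 was the beta segment in 48 of the 49 and 21 of the 22. The most frequent pairs with it were Trav21-dv12 (9 NC and 3 HC cells), Trav6-7-dv9 (7 and 2), Trav16 (4 and 5) and Trav22 (5 and 3). Trbv12-1 was found in 11.8% of cells with a Trav UMI (8.89 to 15.3) and 9.47% of those without in NC, and in 6.40% (4.01 to 9.62) and 8.62% in HC. Each interval thus included the share of the rest. Cells with a Trav UMI were deeper, however, at a median of 8401 against 6850 UMIs in NC and 9068 against 7392 in HC. The part of depth was not tested.

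NC and HC shared their leading Trbv segment, and 1.66% of Trbv UMIs would have to move between segments to make their usage equal. For Trav that share was 19.9% and for Trdv 6.25%. These shares have no interval, and counting error alone makes them larger where few UMIs are spread over many segments. Trav had 484 NC and 397 HC UMIs. How much of its share is counting error was not tested, so it is not read as a difference in usage. The level of Trbv12-1 in CPM was 11.95 for NC (11.3 to 12.6) and 10.81 for HC (10.2 to 11.4), a log2 ratio of HC over NC of -0.14 (-0.26 to -0.03). That is under 1.5-fold. Among all 8704 genes that reached 5 CPM in NC or HC, 3.4% lay 1.5-fold apart or more. Its constant genes were also lower in HC: Trbc2 had a log2 ratio of -0.25 and Trbc1 of -0.09. Per 1000 UMIs of Trbc1 and Trbc2 together, Trbv12-1 had 2.74 UMIs in NC (2.60 to 2.89) and 2.88 in HC (2.72 to 3.05), with a log2 ratio of 0.07 (-0.04 to 0.18). Trav UMIs per 1000 Trac UMIs were 11.5 and 11.7, with a log2 ratio of 0.03 (-0.17 to 0.22). Trdv UMIs per 1000 Trdc UMIs were 17.2 and 14.1, with a log2 ratio of -0.29 (-0.58 to -0.0024).

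Without a CPM floor, 34 variable segments had at least 3 UMIs in each library, of which 13 lay 1.5-fold apart or more, 8 towards NC and 5 towards HC. By the same rule 14.2% of 14901 genes did so, but the 2 shares rest on unlike counts. Only 1 variable segment reached 5 CPM in either library, against 8704 of all genes. Ratios at low counts have wider counting error, and its part in the difference of shares was not tested. Of the 13 segments, 6 had an interval on 1 side of 0 and were named after their values were seen. Higher in NC were Trav13-2 with 12 against 3 UMIs (log2 ratio -1.98), Trav22 with 52 against 24 (-1.10), Trdv5 with 37 against 20 (-0.87) and Trav21-dv12 with 54 against 32 (-0.74). Higher in HC were Trbv31 and Trav4-4-dv10, both with 3 against 13 UMIs (log2 ratio 2.13, 0.27 to 4.58). Beside Trbv31, 5 of the 13 HC cells also held Trbv12-1.

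Other genes of the receptor complex were detected far more often than the variable segments, which lie at the far end of the transcript from the captured tail. Trbc2 was found in 99.97% of NC and 99.92% of HC cells and Trbc1 in 97.2% and 96.9%. Both constant genes were present together in 97.2% and 96.8% of cells. How reads were assigned between these genes was not tested. The longest annotated Trbc2 transcript has 692 bases and that of Trac 935. Of the 17 other receptor genes compared, Tcrg-C1, Tcrg-C2, Tcrg-C4, Ptcra, Rag1, Rag2 and Dntt stayed below 5 CPM in both libraries. None of the rest was 1.5-fold apart, beside 3.4% of all 8704 genes with at least 5 CPM. The furthest was Cd8a with a log2 ratio of -0.54. Below the floor of 5 CPM stood Dntt, the polymerase that adds random nucleotides at receptor joints, at 1.37 CPM in NC and 4.82 in HC (log2 ratio 1.81, 1.55 to 2.07). Rag1 and Rag2, which cut the joints, had 0 UMIs in both. Tcrg-C2 was higher in NC, at 2.43 against 1.56 CPM (log2 ratio -0.63, -0.91 to -0.36). Ptcra, the surrogate alpha chain of immature cells, had 17 and 30 UMIs. Among all 14901 genes with at least 3 UMIs in each library, 14.2% lay 1.5-fold apart or more.

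Detection of a segment rose with depth. Trbv12-1 was found in 5.92% of the shallowest NC quartile (median 4052 UMIs) and 14.6% of the deepest (14063.5 UMIs), and in HC in 5.66% and 12.1%. Its level fell over the same quartiles, from 15.7 to 10.1 CPM in NC and from 14.1 to 8.98 CPM in HC. With every cell thinned to 2000 UMIs, the share with any Trbv was 2.72% for NC (2.45 to 3.01) and 2.48% for HC (2.22 to 2.75), against 9.74% and 8.84% unthinned. A share of cells with a UMI is therefore not the share that uses the segment, and most cells of both libraries had no Trbv UMI at all. As a background, 3 of 19 B cell-like NC cells (15.8%, 3.38 to 39.6, median 14145 UMIs) held Trbv12-1, beside 9.53% of the other NC cells at a median of 6891 UMIs. B cell-like cells were those with a UMI of at least 3 of 8 B cell markers. All 19 also held Trbc2 and 14 held Cd8a, and the HC library had 1 such cell.

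**Figure D4:**
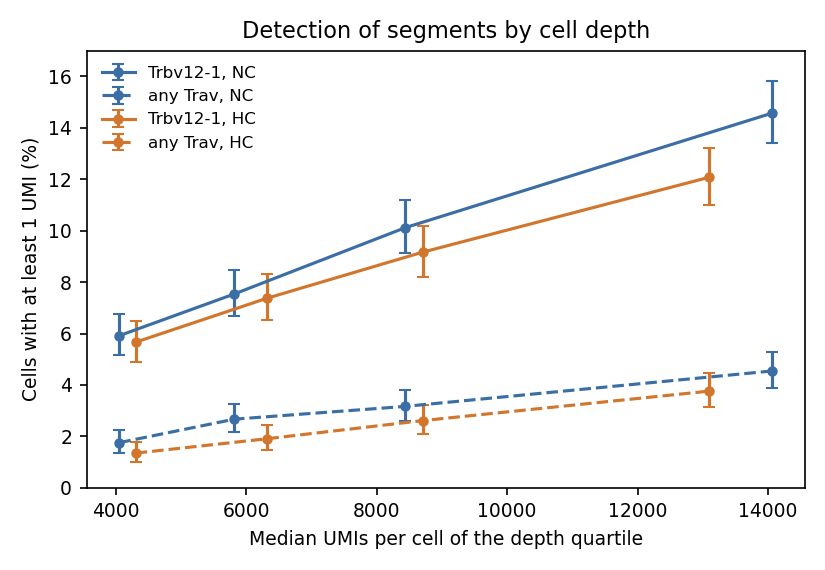
Share of cells with at least 1 UMI of Trbv12-1 (solid) or of any Trav segment (dashed) in each quartile of cell depth, with exact 95% binomial intervals, NC in blue and HC in orange. Both shares rise with depth, from 5.92% to 14.6% for Trbv12-1 in NC.

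Trbv12-1 led Trbv usage in every cell state examined. Cells were split by a UMI of Mki67 (division), Gzmb or Gzma (granzymes), Xcl1 (a chemokine), Ifng (interferon gamma), Il2ra (an interleukin-2 receptor chain), Pdcd1 (the inhibitory receptor PD-1) or Trdc. Trbv12-1 held 95.1% to 100% of the Trbv UMIs in the groups with the gene and 95.4% to 98.3% in those without. Per 1000 Trbc1 and Trbc2 UMIs, the level in cells with and without Xcl1 had separate intervals in NC and overlapping ones in HC: 2.41 (2.20 to 2.64) against 2.94 (2.76 to 3.14) in NC, and 2.35 (1.91 to 2.87) against 2.94 (2.77 to 3.11) in HC. For Il2ra the intervals were separate in HC, at 2.55 (2.28 to 2.83) with and 3.03 (2.84 to 3.24) without, and overlapped in NC, at 2.63 and 2.78. The lowest level was in the 128 HC cells with Ifng, at 0.81 per 1000 (0.22 to 2.07) from 4 UMIs, against 2.90 in the others, while NC gave 2.59 and 2.75. Cells with a UMI of these genes were also deeper (for Xcl1 in NC a median of 8182 against 6495.5 UMIs), and the part of depth was not tested.

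**Figure D5:**
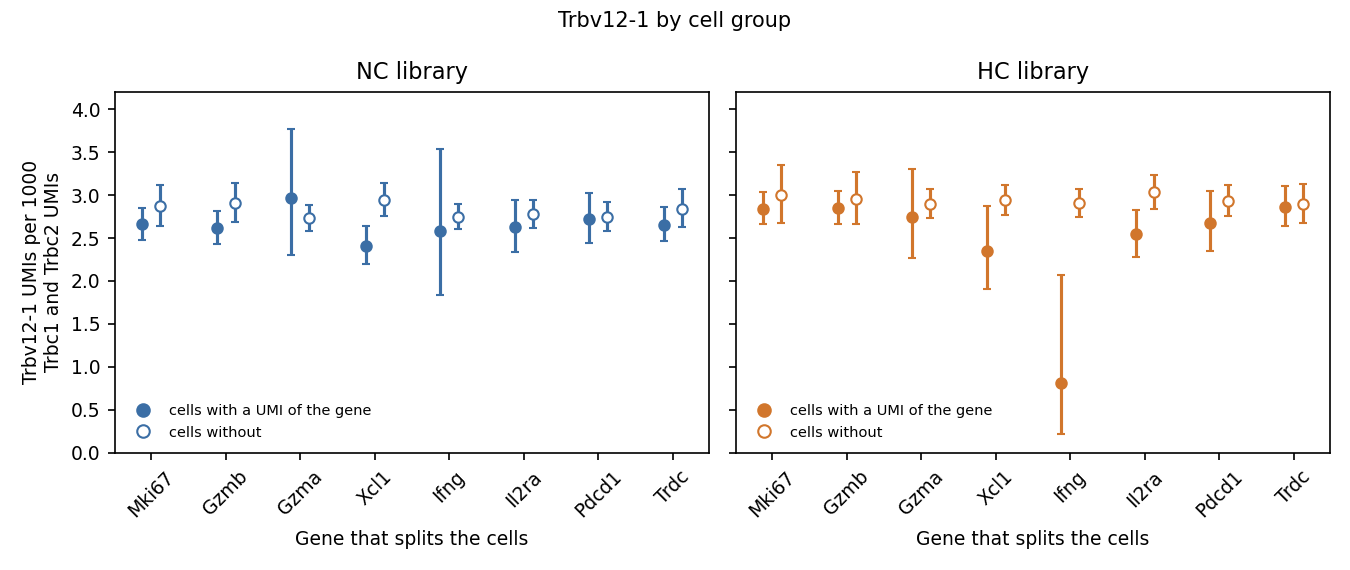
Trbv12-1 UMIs per 1000 Trbc1 and Trbc2 UMIs in cells with (filled) and without (open) a UMI of each gene on the x axis, with exact Poisson 95% intervals, NC on the left and HC on the right. Every other group lies between 2.35 and 3.03, and the HC cells with Ifng stand lowest at 0.81.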

How the data were processed

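Single-cell 3' RNA libraries of mouse CD8+ T cells, 1 labelled NC and 1 HC, were deposited as UMI count matrices of genes by cell barcodes. The authors made these counts with Cell Ranger 5.0.0 on mm10 and used Seurat 3.2.3, per the submitters' processing notes, while the matrix headers name Cell Ranger 6.1.2. Whether counting used strand is not given in the sources used here. Cells were kept at 500 genes, 1000 UMIs and at most 10% mitochondrially encoded UMIs. No doublet caller was run. UMIs were summed per library and divided by the library total. Exact Poisson and binomial 95% intervals cover counting error only. No test was made between NC and HC, as each group is 1 library. Evenness was computed over cells per segment, and thinning drew 2000 UMIs per cell, which left out 133 NC and 94 HC cells. The naming rule took the 6 Trbv and 6 Trav segments found in most cells, the leading Trdv and Trgv segments, segments with at least 5 CPM and 1.5-fold apart, those of OT-I, P14 and pmel-1, a list of 17 other receptor genes and the most frequent pairs; the split of cells by Trdc and other segments named were added after values were seen. The gamma constant genes appear in the files as Tcrg-C1, Tcrg-C2 and Tcrg-C4. All 170 segments matched GENCODE annotation of GRCm38. Scripts were tested on simulated data and used Python 3.11.15, numpy 2.4.6, scipy 1.17.1, pandas 2.3.3, edgeR 4.0.16 and DESeq2 1.42.0, the last 2 for scaling factors only. The members and lists were chosen with earlier results of these data known.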

Additional observations from a re-analysis of the deposited data

Results flagged for a closer look

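Barcodes that failed the cell limits, which entered only the alternative with all deposited barcodes, also held variable segments. In NC the 1157 left-out barcodes had 17 UMIs of Trbv12-1, out of 18 Trbv UMIs, and 17 Trav UMIs. In HC the 1878 left-out barcodes had 27 UMIs of Trbv12-1, out of 28 Trbv UMIs, and 41 Trav UMIs (16.6 CPM, 11.9 to 22.5). Tcrg-V1, a gamma variable segment whose symbol falls outside the naming rule, had 8 UMIs in the kept cells of NC and 8 in those of HC.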

How the results depend on the processing

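The share of Trbv12-1 among Trbv segments stayed between 96.1% and 100% over 16 alternatives, and its log2 ratio of HC over NC between -0.18 and -0.13 over 7. Over all results, 99 values moved by less than their interval or 1.5-fold and 30 moved by more. Thinning to 2000 UMIs gave a Trbv UMI in 2.72% of NC and 2.48% of HC cells and a Trav UMI in 0.874% and 0.643%, 18.9 and 19.3 effective Trav segments, a same-segment share of 100% for Trbv in both, 0% of Trbv cells with more than 1 Trbv in both, and 0% of NC Trav cells with more than 1 Trav. Requiring 2 UMIs of a segment gave 0.572% and 0.477% for Trbv, 0.323% and 0.316% for Trav, a Trbv12-1 share of 100%, 1 effective Trbv segment, 16.4 and 15.2 effective Trav segments, and 0% with more than 1 Trbv in both and more than 1 Trav in NC. Summing segments to families gave 14.4 and 13.7 effective Trav families. With all deposited barcodes the Trbv share was 9.10% and 7.95%, and without the 5% deepest cells it was 9.20% in NC. With at least 3 UMIs in each library in place of the 5 CPM floor, 13 segments were 1.5-fold apart against 0. A floor of 20 CPM left no segment. The cause of these shifts was not tested, except that thinning and the 2-UMI rule leave fewer UMIs by construction. No paired analysis was possible because each group is 1 library.

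A 3' library reads the variable segment of few cells, so a cell without a UMI of a segment is not a cell without that segment, and clones cannot be counted. Junction sequences were not analysed here, so a UMI of a segment does not show that the segment was joined or made into a chain. The annotated pseudogene Trav22 also held UMIs, 52 in NC and 24 in HC. Usage and pairs above therefore mean UMIs counted on segments.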
